A study of Penaeus vannamei with 11 samples.

Results

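The comparison set unstimulated male hemocytes of the Pacific white shrimp, Penaeus vannamei, against unstimulated female ones, across all genes of the deposited table. It used 5 of the 11 libraries of the series, chosen by their labels: control females 1, 2 and 3, and control males 2 and 3. A control male numbered 1 was not analysed here. The other 6 libraries, 3 of females and 3 of males given Vibrio parahaemolyticus, served to estimate the spread and to set values beside the controls. All 11 libraries carry the tissue label hemolymph, the cell type label Haemocyte and the treatment label immune, so the controls share that last label with the stimulated libraries and differ from them in the agent alone. The labels give no strain, age or size of the shrimp and do not say what the controls received. They also do not say whether a library holds 1 animal or a pool, so the p values measure spread between these libraries, which may be technical.

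Hemocytes are the circulating cells of shrimp hemolymph. They clot hemolymph with a transglutaminase, store antimicrobial peptides such as penaeidins and crustins in granules, carry the prophenoloxidase system that leads to melanin, and engulf microbes. Sex in penaeid shrimp is set by a ZW system, in which females carry the unlike pair of sex chromosomes. Hemolymph also carries the hormones of the gonads and, in males, of the androgenic gland.

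Depth was similar in the libraries compared. The 5 control libraries held 39733829 to 49984329 counts and 13469 to 15138 genes with a count, and control male 2 was the shallowest and had the fewest genes. Of the 18803 genes in the table, 14295 passed the filter on low counts and were tested. Levels are given as CPM, the count scaled to a common library size with TMM factors, and as the deposited FPKM where genes are compared with each other. A log2 fold change is the male level over the female level from the edgeR fit, and 2 groups do not overlap when both males lie above, or both below, all 3 females on the CPM scale.

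Most hemocyte markers were abundant in every control library. Of the 17, each had a count in at least 1 of the 5, and 4 were nearly absent: a putative hemocyte transglutaminase (LOC113826241), prophenoloxidase 3 (LOC113812416), Pl-crustin 2 (LOC113812348) and a hemocyte transglutaminase-like gene (LOC113823455) had mean deposited FPKM of 0.480, 0.206, 0.0387 and 0.0184. Pl-crustin 2 was at 0 in 3 of the 5 libraries and LOC113823455 in 4. Penaeidin-3a-like (LOC113808997), an antimicrobial peptide of granular cells, had a mean deposited FPKM of 13248 in females and 10646 in males. Crustacean hematopoietic factor-like protein (LOC113802754), also known from hemocytes, had 4727 and 5482. Summed over the list the markers stood at 53416, 31396 and 72722 CPM in females 1, 2 and 3, and at 39298 and 29999 CPM in males 2 and 3. Female 2 lay between the males, so the groups overlapped. Vitellogenin, the egg yolk protein, was near 0: LOC113804022 had 0, 0.0371 and 2.91 CPM in females and 0 and 1.50 CPM in males.

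The female libraries differed among themselves about as much as they differed from the males. Over 8169 genes of at least 5 CPM, Pearson's r of log2 levels between females ran from 0.914 to 0.947 and was 0.944 between the males. The closest of the 10 pairs was female 2 with male 3, at r = 0.972 and a median difference of 1.15-fold. The most distant was female 1 with male 3 by r, at 0.899, and female 1 with male 2 by median difference, at 1.57-fold. The first principal component of the 5 libraries, with 49.3% of the variance, set female 1 (0.79) against female 2 (-0.31) and both males (-0.32 and -0.36). The second, with 24.6%, set male 2 (0.76) against male 3 (-0.50). Sex took 25.5% of the variance among the 5 libraries. The mean over all 10 ways to split them into 2 and 3 was 25%, and the exact permutation p for sex was 0.5. With 3 females and 2 males the smallest two-sided exact p is 0.2, so no single value can be called by that test.

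No gene passed in the comparison of control males with control females. edgeR's quasi-likelihood test called 0 of 14295 genes (0%) at an adjusted p under 0.05, the lowest adjusted value being 0.756. At an unadjusted p under 0.05 there were 698 genes (4.88%), close to the share that this threshold allows with no difference at all. Of these 305 (2.13%) were higher and 393 (2.75%) lower in males. The number of genes under that threshold was 225 without female 1, 1625 without female 2, 346 without female 3 and 1285 without Vibrio female 3. DESeq2 called 13 of the 14183 genes it adjusted (0.0917%), 6 higher and 7 lower. By sign, 6935 genes (48.5%) were higher in males, and the median log2 fold change over all tested genes was -0.02 with quartiles of -0.45 and 0.38. The groups did not overlap for 1364 genes higher (9.54%) and 1681 lower (11.8%) in males. The 5 libraries can be split into 2 and 3 in 10 ways. With no sex difference a share of about 0.1 of the genes would thus separate in each direction. Both shares lie near that, so no sex difference is read from them. The numbers higher and lower depended on the scale: on library totals without TMM they were 837 and 2206, and on deposited FPKM 819 and 2214. In simulated counts for this contrast the fit recovered 12% of 2-fold, 82% of 4-fold and 100% of 8-fold changes, each over 50 genes. The changed genes had a mean of at least 5 CPM, and every gene was given the typical spread at its level. A spread particular to a gene and the trend on transcript length described below were not simulated. Recovery in these libraries may therefore be lower.

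The sign of the sex difference followed transcript length, as implied by the ratio of deposited count to deposited FPKM. Among 8169 genes of at least 5 CPM cut into 5 bins of equal size, the median log2 fold change was 0.31 in the shortest bin, with a median length of 921 bases, and 0.17, 0.07 and -0.10 in the next 3. In the longest bin, with a median length of 5890 bases, it was -0.27. Short transcripts thus stood higher in males and long ones lower. Of the shortest bin 18.3% lay higher in both males without overlap and 6.43% lower, and of the longest 3.98% and 24.9%. Spearman's rho between length and log2 fold change was -0.40 across these genes, which are not independent replicates.

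Female 1 and male 2 held the ends of this slope. The median of the longest bin less that of the shortest, each as a deviation from the mean of the 11 libraries, was 0.61 in female 1 and -0.56 in male 2. It was -0.07 in female 2, 0.14 in female 3 and -0.06 in male 3. Without male 2 the bins ran from 0.07 to -0.19, without male 3 from 0.46 to -0.37, and without both female 1 and male 2 from -0.03 to -0.12. With an offset that removed a trend on length within each library, they ran from 0.05 to -0.02. The offset and the removal of both libraries were added after the data had been seen. In the Vibrio libraries the males less females medians ran the other way, from -0.15 in the shortest bin to 0.06 in the longest. Whether the length slope comes from RNA quality, library preparation or the cells was not tested, and values with the offset stand beside the gene groups that follow.

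**Figure D1:**
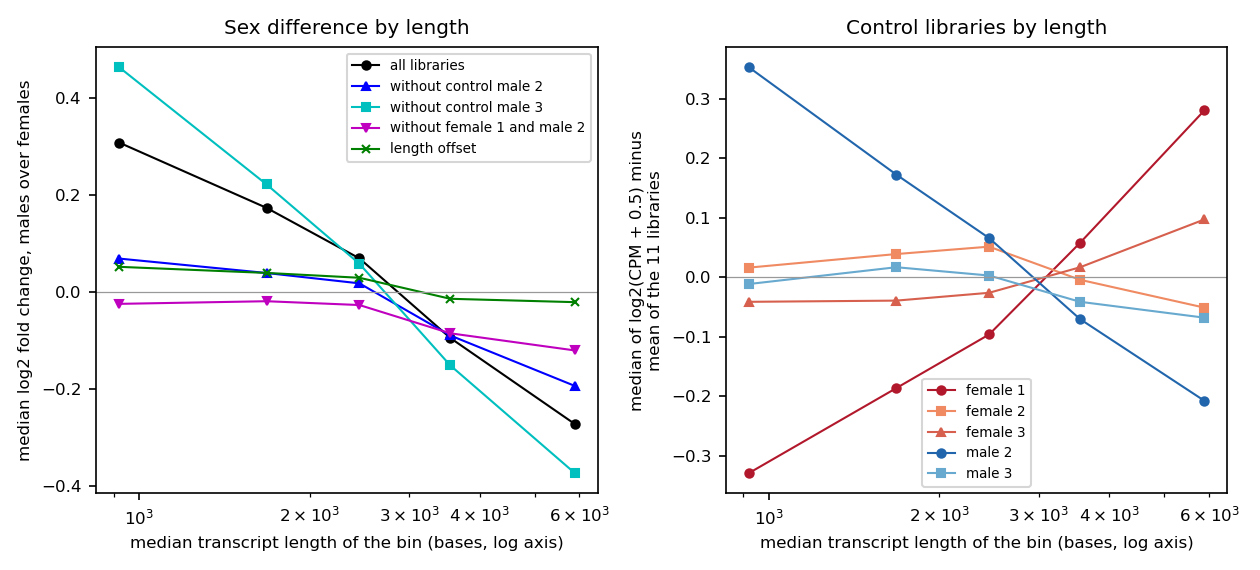
Left, median log2 fold change of control males over control females in 5 bins of transcript length (log axis) under 5 fits; right, the median deviation of each control library from the mean of the 11 libraries in the same bins. The black line falls from 0.31 to -0.27, and female 1 and male 2 slope in opposite directions while the other 3 libraries stay within 0.10 of 0.

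Gene groups were read from the deposited names as 33 lists. Lists of protein turnover, translation and energy supply had the highest medians in males, and lists of clotting, hemocyte markers, lysozymes, nuclear receptors and lectins the lowest. Some lists share genes, so their medians are not independent. The hemocyte markers include the transglutaminase-like gene LOC113823945 of the clotting list and prophenoloxidase-1 (LOC113827090) of the prophenoloxidase list. No member of any list was called by edgeR. Members without overlap are to be read beside the shares of all tested genes, 9.54% higher and 11.8% lower in males. Those shares changed with length, from 18.3% and 6.43% in the shortest bin to 3.98% and 24.9% in the longest. For 10 of the 33 lists the share of library totals did not overlap between the sexes, each with an exact permutation p of 0.2. Of these, clotting, integrins and matrix, nuclear receptors and sex determination overlapped when summed on the CPM scale, with male 2 above female 2.

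**Figure D2:**
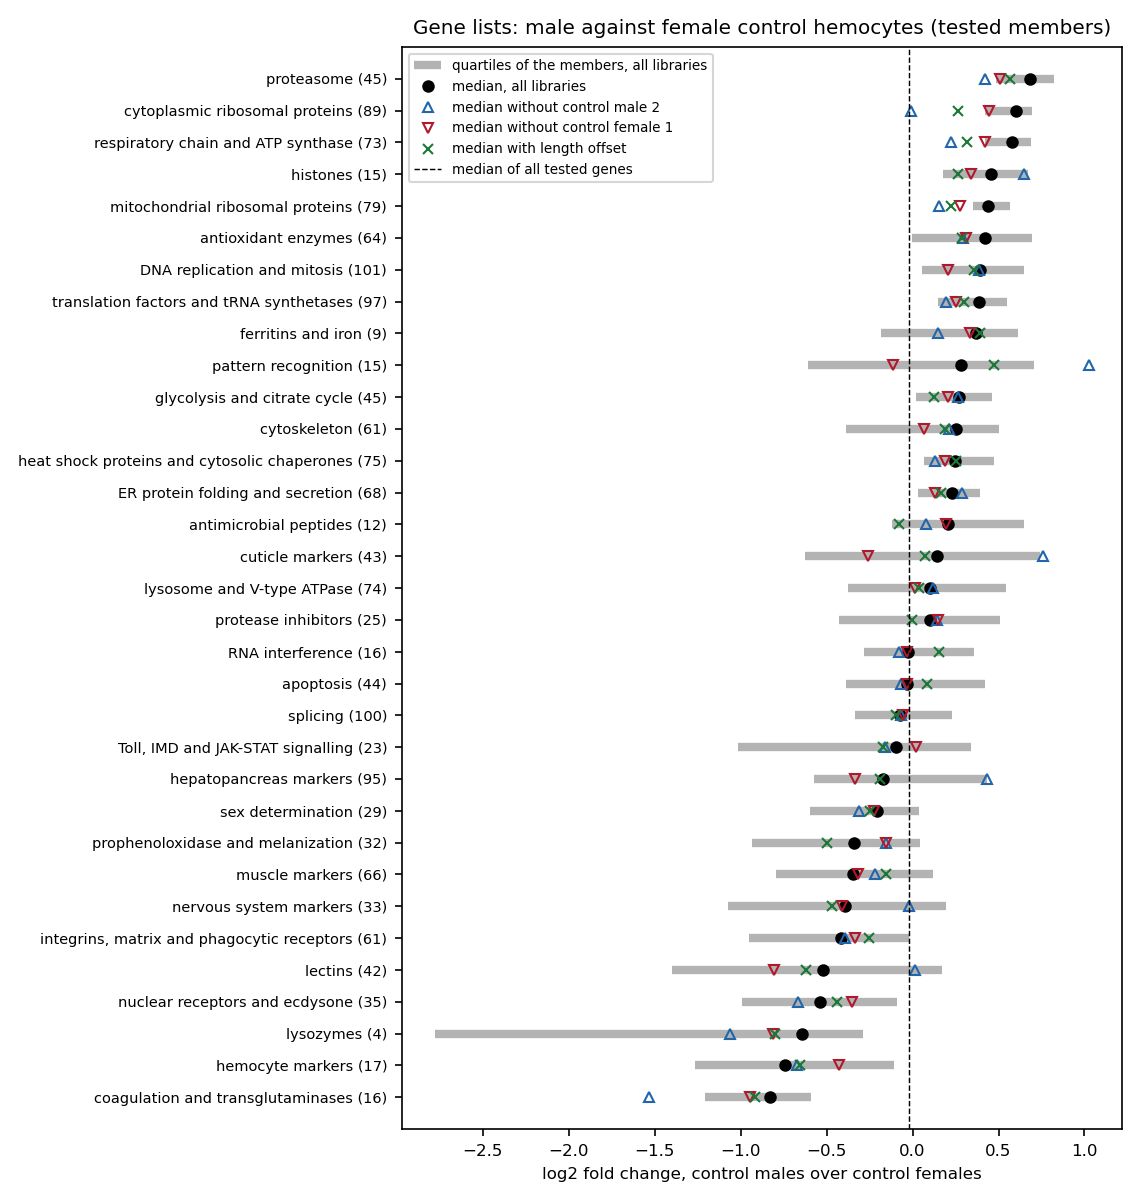
Median log2 fold change of control males over control females for the tested members of 33 gene lists (number of tested members in brackets), with quartiles as grey bars. The triangles leave out control male 2 or control female 1, the crosses use the length offset, and the dashed line is the median of all tested genes at -0.02; the proteasome lies furthest right at 0.68 and clotting genes furthest left at -0.83.

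The proteasome, which degrades ubiquitin-tagged proteins, had the highest median of all lists. Of its 45 tested members 42 were higher in males, with a median log2 fold change of 0.68, and 17 had an unadjusted p under 0.05, all of them higher. The groups did not overlap for 32 higher members and 1 lower one, against 9.54% and 11.8% of all tested genes. Proteasome genes took 0.365, 0.596 and 0.435% of the counts in females 1, 2 and 3, and 0.730 and 0.630% in males 2 and 3. The most abundant member was proteasome subunit beta type-4-like (LOC113819205), part of the catalytic core ring, at 119, 168 and 163 CPM in females and 291 and 204 CPM in males. The log2 fold change of that gene was 0.72 with SE 0.31. Proteasome subunit alpha type-7-like (LOC113809326), of the outer ring, stood at 50.6, 83.8 and 72.2 CPM in females and 156 and 107 CPM in males, a log2 fold change of 0.94. Both genes share their names with 1 other gene. The median of the list was 0.56 with the length offset, 0.42 without male 2, 0.51 without female 1 and 0.25 without both. In the Vibrio libraries it was -0.11.

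Respiratory chain and ATP synthase genes, which make most of a cell's ATP, stood higher in males in 67 of 73 tested members, with a median of 0.58. The groups did not overlap for 26 higher members and 1 lower one. That was 35.6% and 1.37% of the list, against 9.54% and 11.8% of all tested genes. The list took 0.702, 1.04 and 0.810% of the counts in females and 1.07 and 1.05% in males, so female 2 lay just under both males. The most abundant member, ATP synthase subunit beta (LOC113829387), overlapped, at 1102, 1464 and 1202 CPM in females and 1163 and 1653 CPM in males. ATP synthase subunit d (LOC113823895), of the stalk, did not, at 120, 201 and 171 CPM in females and 319 and 220 CPM in males. The median was 0.32 with the length offset, 0.22 without male 2 and 0.07 without female 1 and male 2 together.

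Sugar metabolism leaned the same way with a smaller median. Of 45 tested genes of glycolysis and the citrate cycle 34 were higher in males, the median was 0.27, and 14 were higher and 0 lower without overlap. Pyruvate kinase-like (LOC113828822), which makes pyruvate and ATP in the last step of glycolysis, stood at 271, 354 and 322 CPM in females and 737 and 518 CPM in males, a log2 fold change of 0.99 with SE 0.27. Hexokinase type 2-like (LOC113805141), which traps glucose in the first step, stood at 78, 114 and 97.1 CPM in females and 115 and 254 CPM in males. Male 2 lay barely above female 2 for hexokinase, and male 3 carried the difference. Fructose-bisphosphate aldolase-like (LOC113808337) was the most abundant member and overlapped. The median of the list was 0.12 with the length offset, 0.26 without male 2 and 0.17 without female 1 and male 2.

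Cytoplasmic ribosomal protein genes were higher in males in 84 of 89 tested members, with a median of 0.60, but without overlap for 5 higher members and 1 lower one. Male 2 held that median: the list took 13.1% of the counts in male 2, 8.37% in male 3, and 6.83, 9.16 and 8.67% in females 1, 2 and 3. Without male 2 the median was -0.01, and without male 3 it was 1.05. 60S ribosomal protein L8-like (LOC113804304), the most abundant, stood at 1895, 2449 and 3098 CPM in females and 5161 and 2306 CPM in males. Male 3 was thus below female 2. These transcripts are short, with a median length of 727 bases, and the length offset took the list's median to 0.26.

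Mitochondrial ribosomal proteins, which translate the mitochondrial genome, had 73 of 79 members higher and a median of 0.44, with 13 higher and 1 lower without overlap. The higher ones were 16.5% of the list, against 18.3% of the shortest length bin. The median of the list was 0.22 with the length offset, 0.15 without male 2 and -0.01 without female 1 and male 2. Translation factors and tRNA synthetases had 79 of 97 members higher, a median of 0.39, and 18 higher and 5 lower without overlap. The most abundant of them, elongation factor 1-alpha-like (LOC113820946), was at 13892, 12068 and 18213 CPM in females and 13911 and 13738 CPM in males, with both males inside the female range. The median of the translation factors was 0.30 with the length offset, 0.19 without male 2, 0.25 without female 1 and 0.09 without both.

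Protein folding and redox genes stood moderately higher in males. Heat shock proteins and cytosolic chaperones had 59 of 75 members higher with a median of 0.25, and genes of folding and secretion in the endoplasmic reticulum 51 of 68 with a median of 0.23. Prefoldin subunit 1-like (LOC113812238), which hands newly made actin and tubulin to the chaperonin, stood at 15.8, 34.3 and 16.6 CPM in females and 57.3 and 40.8 CPM in males. Heat shock cognate 70 kDa protein (LOC113817372), the most abundant chaperone, spread more within males, at 1151 and 2851 CPM, than between the sexes. The chaperone median was 0.25 with the length offset, 0.13 without male 2, 0.44 without female 2 and 0.05 without female 1 and male 2. The endoplasmic reticulum median was 0.17 with the length offset, 0.13 without female 1, 0.35 without female 2 and 0.10 without male 3.

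Antioxidant enzymes had 47 of 64 members higher in males, a median of 0.42, and 17 higher and 1 lower without overlap. Peroxiredoxin-6-like (LOC113823673), which reduces peroxides, stood at 140, 109 and 110 CPM in females and 258 and 193 CPM in males. Its log2 fold change was 0.91 with SE 0.21, and DESeq2 called it at an adjusted p of 0.0320. The selenium-dependent glutathione peroxidase gene LOC113819894, the most abundant member, stood at 595, 1029 and 739 CPM in females and 1456 and 1192 CPM in males. Both males were above all females for these enzymes. The list's median was 0.28 with the length offset, 0.29 without male 2 and 0.22 without female 1 and male 2.

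Lysosome and V-type ATPase genes split. Of 74 tested members 40 were higher, with a median of 0.10 and a mean of -0.15, yet 19 lay higher and 1 lower without overlap. The median was 0.36 without female 3, 0.01 without female 1 or male 3, and -0.02 with hepatopancreas markers as a covariate. V-type proton ATPase subunit B (LOC113821152), part of the pump that acidifies lysosomes, stood at 37.4, 57.6 and 53.7 CPM in females and 97.1 and 86.5 CPM in males. The gene named V-type proton ATPase subunit B-like (LOC113822054) stood at 49.1, 66.6 and 65.7 CPM in females and 118 and 98.1 CPM in males. Their log2 fold changes were 0.89 and 0.84. Whether reads are shared between them was not tested. Ferritins and iron genes had 6 of 9 members higher, and their share of the counts was 0.110, 0.133 and 0.142% in females and 0.184 and 0.174% in males. The median of these iron genes was 0.37, and 0.15 without male 2.

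Genes of DNA replication and mitosis had 80 of 101 members higher in males, a median of 0.39, and 21 higher and 5 lower without overlap. This median was 0.36 with the length offset, 0.39 without male 2, 0.22 without male 3, 0.21 without female 1 and 0.62 without female 2. The most abundant member, the 70 kDa DNA-binding subunit of replication protein A (LOC113827271), which coats single-stranded DNA, overlapped at 137, 197 and 173 CPM in females and 308 and 179 CPM in males. Of 15 tested histone genes 14 were higher, with a median of 0.45. With the length offset 11 were higher and the median was 0.27, and without male 3 it was 0.17. Histone H2A-like (LOC113829109) stood at 7.08, 13.8 and 12.9 CPM in females and 24.5 and 19.6 CPM in males. Cytoskeleton genes had 36 of 61 members higher and a median of 0.25, which was -0.16 without male 3, 0.06 without female 1 and 0.08 without female 2. Thymosin beta-like (LOC113827561), which binds actin monomers, stood at 3662, 5132 and 4433 CPM in females and 7064 and 5913 CPM in males.

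**Figure D3:**
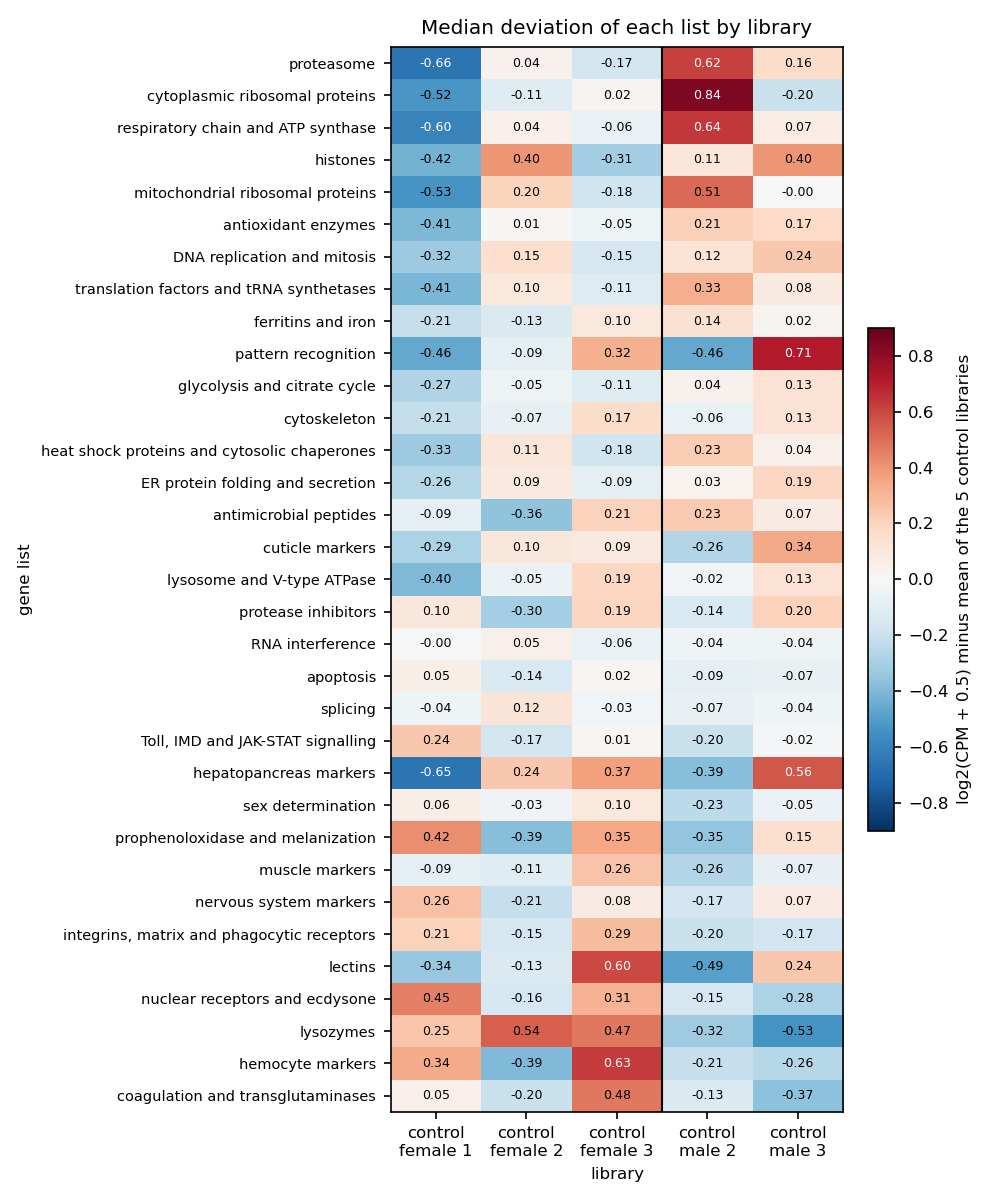
Median over the tested members of each list of log2(CPM + 0.5) in a control library less the mean of the 5 control libraries; lists are ordered by their median sex difference and red is higher. Female 1 is lowest and male 2 highest for the proteasome (-0.66 and 0.62) and the respiratory chain (-0.60 and 0.64), while male 3 is at 0.16 and 0.07 and female 2 at 0.04 for both.

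Clotting genes had the lowest median of all lists. Of 16 tested genes of coagulation and transglutaminases 3 were higher in males, and the median was -0.83. They took 2.90, 1.61 and 3.48% of the counts in females and 1.35 and 0.867% in males, and these shares of library totals did not overlap. Summed on the CPM scale the groups did overlap, with male 2 at 15490 CPM and female 2 at 14911 CPM. The hemocyte transglutaminase-like gene LOC113823945, whose product cross-links the clot, stood at 4334, 2243 and 5554 CPM in females and 2474 and 1084 CPM in males, with male 2 above female 2. A more strongly counted gene of the same name, LOC113823934, stood at 18030, 9603 and 25088 CPM in females and 9918 and 4551 CPM in males. This name belongs to 4 genes. Hemocytin-like (LOC113824171), a large adhesive clotting protein, had 1712, 607 and 1603 CPM in females and 652 and 434 CPM in males. For all 3 genes male 2 lay just above female 2, and the groups overlapped. The median of the list was -0.92 with the length offset, -1.53 without male 2, -0.59 without male 3 and -0.60 without female 3. Fewer cells that carry these transcripts and less RNA per cell cannot be told apart in bulk libraries.

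Astakine (LOC113822052), a cytokine that in crayfish drives the formation of hemocytes, varied widely between libraries. It stood at 2023, 163 and 2859 CPM in females 1, 2 and 3 and at 218 and 217 CPM in males 2 and 3. Female 2 thus lay with the males, under both, and the groups overlapped. The log2 fold change was -2.95 with SE 0.99. The gene was named after its values were seen. Over all 17 hemocyte markers 4 were higher in males and the median was -0.74, which was -0.43 without female 1 and -0.42 without female 3.

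The prophenoloxidase system showed the same lean with overlap. Of 32 tested genes of prophenoloxidase and melanization 9 were higher in males, and the median was -0.34. Prophenoloxidase-1 (LOC113827090), the enzyme precursor, stood at 4186, 1578 and 3255 CPM in females and 1705 and 1885 CPM in males, again with female 2 below both males. Prophenoloxidase activating enzyme (LOC113819328) stood at 678, 313 and 642 CPM in females and 371 and 198 CPM in males. Without female 1 and male 2 the median of the list was 0.15, so its direction rested on those libraries. All 4 tested lysozyme genes were lower in males, with a median of -0.65, which was -1.06 without male 2, -1.52 without male 3 and -0.41 without female 3. The most abundant, lysozyme C-like (LOC113802295), overlapped at 2164, 850 and 1693 CPM in females and 1898 and 1025 CPM in males.

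Antimicrobial peptides took a similar share of the counts in both sexes, at 2.92, 2.65 and 3.54% in females and 3.39 and 3.38% in males. Of 12 tested genes 7 were higher in males, with a median of 0.21, a mean of -0.12, and medians of -0.08 with the length offset, 0.08 without male 2 and 0.43 without male 3. The groups did not overlap for 4 higher and 0 lower members. The anti-lipopolysaccharide factor-like gene LOC113800363, which binds bacterial lipopolysaccharide, stood at 4050, 6052 and 4958 CPM in females and 13516 and 8317 CPM in males. Its log2 fold change was 1.12 with SE 0.35, 0.84 with the length offset and 0.73 without male 2. That name belongs to 8 genes, and a second, LOC113820510, stood at 38.8, 32.4 and 33.5 CPM in females and 62.3 and 49.0 CPM in males. The most abundant peptide gene, a putative antimicrobial peptide (LOC113801825), overlapped at 11680, 8797 and 13307 CPM in females and 12707 and 11568 CPM in males.

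Recognition and signalling lists had no common direction. Lectins, which bind sugars on microbes, had 14 of 42 members higher and a median of -0.52, which was 0.01 without male 2, 0.16 without female 3 and -1.50 without male 3. Pattern recognition proteins had 8 of 15 higher, a median of 0.28, a mean of -0.31, and medians of -0.11 without female 1 and -1.35 without male 3. Toll, IMD and JAK-STAT genes had 9 of 23 higher and a median of -0.09. Their most abundant member, protein spaetzle (LOC113810575), the ligand of Toll, stood at 332, 269 and 312 CPM in females and 263 and 670 CPM in males. The males differed from each other more than the sexes did. RNA interference genes had 7 of 16 higher, a median of -0.03 and a mean of 0.96, which rests on argonaute-3-like (LOC113817401) and argonaute-2-like (LOC113808207), both at 0 in all 3 females, so that their fitted values are no measure of size. Apoptosis genes had 21 of 44 higher and a median of -0.04.

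Protease inhibitors had 14 of 25 members higher, a median of 0.10, and 4 higher and 0 lower without overlap. The median turned to -0.26 without male 3 and -0.19 with hepatopancreas markers as a covariate. A kunitz-type serine protease inhibitor gene (LOC113806311), whose family blocks serine proteases, stood at 833, 1773 and 957 CPM in females and 5663 and 2589 CPM in males. Both males were above all females, the log2 fold change was 1.80 with SE 0.90, and it was 1.12 without male 2. The transcript is among the shorter ones, at 405 bases, and the value was 1.42 with the length offset.

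Adhesion and matrix genes stood lower in males. Of 61 tested genes of integrins, matrix and phagocytic receptors 14 were higher, with a median of -0.42. The groups did not overlap for 11 lower members, 18% of the list against 11.8% of all tested genes, and for 3 higher ones, 4.92% against 9.54%. These transcripts are long, with a median length of 3968 bases. In the length bin of 2944 to 4391 bases 15.8% of genes lay lower and 7.77% higher without overlap. Integrin alpha-PS1-like (LOC113807301), a laminin receptor in Drosophila, stood at 48.1, 15.8 and 49.6 CPM in females and 12.6 and 13.5 CPM in males. Integrin beta subunit (LOC113819144), the most abundant member, stood at 2982, 1984 and 3007 CPM in females and 1905 and 2079 CPM in males, with female 2 between the males. The list took 1.27, 1.03 and 1.15% of the counts in females and 0.836 and 0.953% in males. Summed on the CPM scale the groups overlapped, with male 2 at 9618 CPM and female 2 at 9529 CPM. With the length offset 21 of 61 members were higher and the median was -0.25, and without female 3 it was -0.21.

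Nuclear receptors and ecdysone genes, which carry the molting hormone signal, had 6 of 35 members higher in males and a median of -0.54. Without overlap 2 lay higher and 7 lower, 5.71% and 20% of the list against 9.54% and 11.8% of all tested genes. Their median transcript length was 3343 bases, and in the length bin of 2944 to 4391 bases 7.77% lay higher and 15.8% lower. Nuclear hormone receptor FTZ-F1-like (LOC113828208), an ecdysone-timed factor in Drosophila, stood at 264, 28.3 and 99.2 CPM in females and 26.7 and 19.0 CPM in males. Female 2 lay just above both males, and the log2 fold change was -2.52 with SE 0.80. Broad-complex protein (LOC113804745), another ecdysone-response factor, stood at 9.89, 5.73 and 8.48 CPM in females and 3.73 and 4.81 CPM in males. The median of the list was -0.44 with the length offset and -0.35 without female 1. Molt stage is not given in the labels and was not tested.

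Splicing genes had 42 of 100 members higher and a median of -0.07, near that of all genes. Without overlap 22 members lay lower and 6 higher. That was 22% and 6% of the list, against 11.8% and 9.54% of all tested genes. The median was 0.04 without female 2. The gene heterogeneous nuclear ribonucleoprotein K-like (LOC113820117), of a family that binds pre-mRNA, stood at 6.30, 5.90 and 3.42 CPM in females and 1.85 and 1.50 CPM in males. Heterogeneous nuclear ribonucleoprotein L-like (LOC113820820), of the same family, stood at 42.3, 22.9 and 43.1 CPM in females and 17.4 and 13.5 CPM in males. With the length offset 34 members were higher.

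Markers of other tissues were present, with muscle markers highest in sum and hepatopancreas markers uneven between libraries. Of 121 hepatopancreas markers 8 had no count in the 5 libraries, and their summed level was 611 to 2011 CPM in females and 1203 to 3098 CPM in males. Hemocyanin (LOC113830072), the oxygen carrier made by that gland, stood at 8.11, 284 and 124 CPM in females and 138 and 515 CPM in males. Muscle markers summed to 6163 to 7497 CPM in females and 5537 to 6047 CPM in males, and 14 of 66 tested members lay lower without overlap. That was 21.2%, against 11.8% of all tested genes. It was 15.8% in the length bin of 2944 to 4391 bases, which holds the median length of these markers, 3120 bases. Of 123 muscle markers 12 had no count, and the sum included arginine kinase (LOC113816366), at 1181 to 1786 CPM, and the non-muscle myosin light chain sqh (LOC113820650), at 1005 to 1666 CPM. Nervous system markers summed to 409 to 734 CPM and 367 to 395 CPM, and 35 of 107 had no count. Cuticle markers summed to 49.3 to 142 CPM and 67.4 to 70.9 CPM, and 40 of 184 had no count. With the summed hepatopancreas markers as a covariate the median was 0.71 for the proteasome, 0.61 for the respiratory chain, -0.81 for clotting and -0.49 for nuclear receptors, and -0.07 for the cytoskeleton. The part of muscle, nervous and cuticle tissue in the results was not tested.

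The genes that most clearly separated the sexes were taken as the 12 smallest unadjusted p in each direction among well-expressed genes with a descriptive name and no overlap. Failed axon connections-like (LOC113808479), named after a Drosophila gene of axon growth, stood at 34.5, 36.8 and 29.1 CPM in females and 90.3 and 83.1 CPM in males. Its log2 fold change was 1.37 with SE 0.30, 1.16 with the length offset and 1.31 without male 2. DESeq2 called it at an adjusted p of 0.0447. Loricrin-like (LOC113801821), a name from a vertebrate skin protein, stood at 176, 174 and 275 CPM in females and 354 and 491 CPM in males, and here male 3 was the higher male. The gene named putative thiopurine S-methyltransferase (LOC113828399) stood at 27.1, 26.1 and 27.1 CPM in females and 68.2 and 43.3 CPM in males. Beta-glucuronidase-like (LOC113828353), a lysosomal sugar-cleaving enzyme, stood at 15.6, 18.8 and 15.2 CPM in females and 25.8 and 24.9 CPM in males. The males agreed closely for that enzyme, and its log2 fold change was 0.62 with SE 0.19. The other members were electron transfer flavoprotein regulatory factor 1-like (LOC113822000, 0.98), mediator of RNA polymerase II transcription subunit 27-like (LOC113814671, 0.68), and 6 genes described above. Their median transcript length was 1184 bases.

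Among those lower in males, eukaryotic translation initiation factor 4 gamma 1-like (LOC113823483) had the smallest unadjusted p of all 14295 tested genes, 9.58e-05 by edgeR, with an adjusted p of 0.756. This scaffold protein brings mRNA to the ribosome. It stood at 47.5, 27.1 and 52.2 CPM in females and 10.6 and 7.10 CPM in males, and the highest male was below every female. Its log2 fold change was -2.25 with SE 0.36, -2.30 with the length offset, -2.57 without male 2 and -1.97 without male 3, and DESeq2 called it at an adjusted p of 1.48e-05. The name belongs to 2 genes. In the Vibrio libraries its log2 fold change between the sexes was -0.02.

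The next ranks held enzymes, receptors and signalling proteins. Alpha-mannosidase 2x-like (LOC113812487), which trims N-glycans in the Golgi, stood at 53.8, 24.4 and 36.8 CPM in females and 15.7 and 14.1 CPM in males, a log2 fold change of -1.36 with SE 0.32. Inositol polyphosphate 5-phosphatase E-like (LOC113804514), a phosphoinositide phosphatase, stood at 94.1, 95.4 and 77.3 CPM in females and 44.5 and 52.6 CPM in males. E3 ubiquitin-protein ligase SMURF1-like (LOC113811782), which tags proteins of TGF-beta signalling in mammals, stood at 308, 221 and 256 CPM in females and 155 and 167 CPM in males. For these 3 genes the males lay close together and below all females. Collectin-12-like (LOC113830113), named for a scavenger lectin, stood at 56.7, 18.2 and 44.8 CPM in females and 13.6 and 12.8 CPM in males, a log2 fold change of -1.59. Tropomyosin-like (LOC113820944), which lies along actin filaments, stood at 209, 167 and 253 CPM in females and 128 and 93.2 CPM in males. The glutamate receptor gene LOC113823802, one of 7 of its name, had -1.15, docking protein 2-like (LOC113806080) -0.69, rap guanine nucleotide exchange factor 2-like (LOC113802398) -1.14 and the mitochondrial 4-aminobutyrate aminotransferase gene LOC113828152 -1.21 on the log2 scale. A putative leucine-rich repeat gene (LOC113820355) had -0.72, and heterogeneous nuclear ribonucleoprotein K-like is given above.

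The median transcript length of the 12 genes lower in males was 2872 bases. Of the 12 higher in control males 1 was also higher in Vibrio males, and of the 12 lower ones 7 were also lower. The Vibrio libraries are not part of the rule, but the genes were picked as extremes in the controls, and no gene passed the test of the difference between the sex effects.

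**Figure D4:**
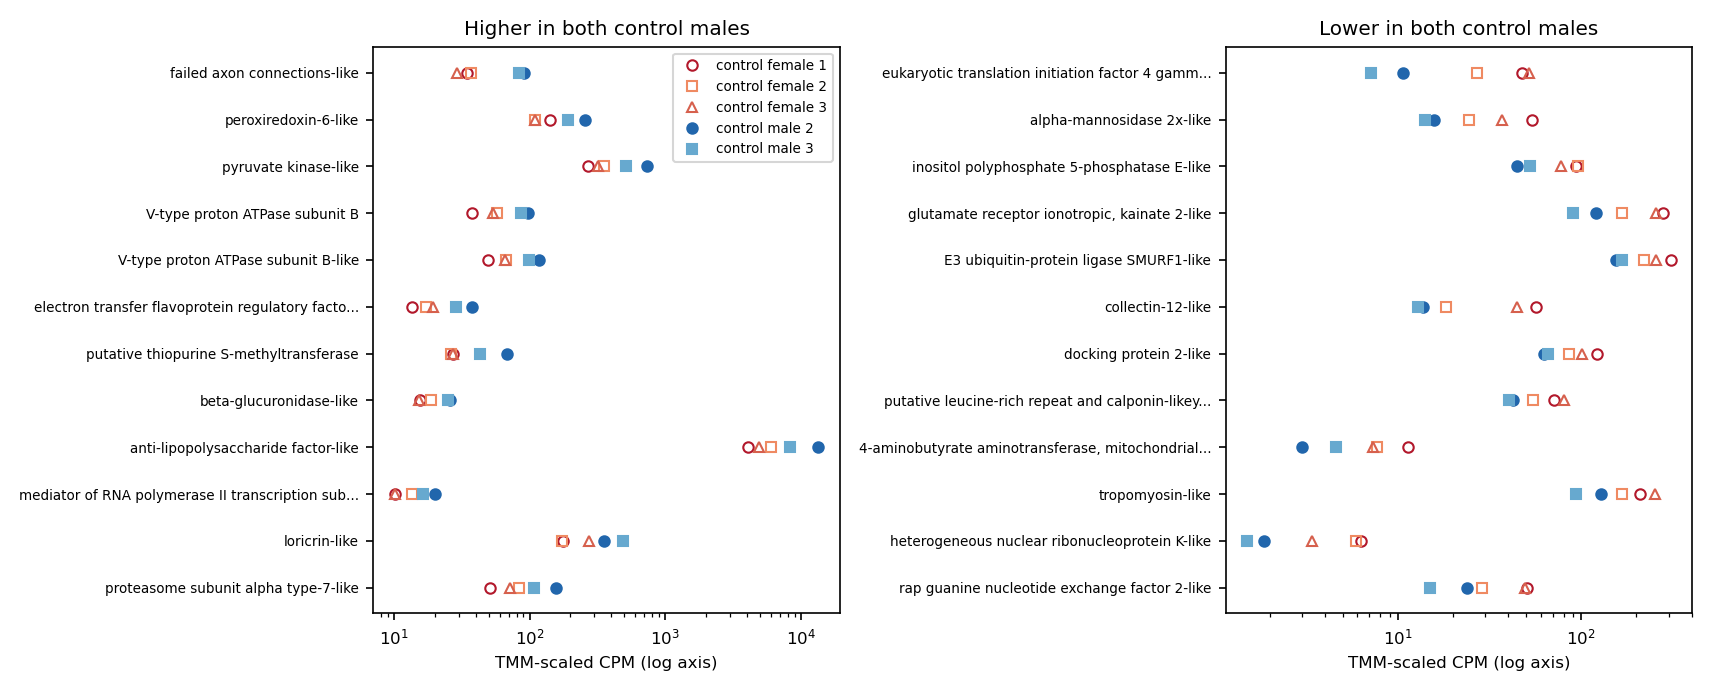
CPM (log axis) in each control library for the 12 genes higher (left) and the 12 lower (right) in both control males with the smallest unadjusted p, where open symbols are females and filled symbols males. The rule keeps only genes whose sexes do not overlap, so each row separates by choice; the gap is widest for eukaryotic translation initiation factor 4 gamma 1-like, at 27.1 CPM or more in females and 10.6 CPM or less in males.

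Sex determination genes showed no called difference. The list held 39 genes, of which 36 had a count in a control library and 29 were tested, 9 higher and 20 lower in males, with a median of -0.21, which was -0.46 without male 3 and -0.11 without female 3. The 3 genes named Sex-lethal, after the RNA-binding master switch of Drosophila, had nearly equal levels: LOC113803286 stood at 350, 361 and 387 CPM in females and 396 and 356 CPM in males, LOC113820661 at 202, 207 and 220 CPM and 212 and 184 CPM, and LOC113803287 at 4.29 to 6.63 CPM in all 5. Their log2 fold changes were 0.04, -0.08 and -0.08. Transformer-2 homologs, splicing partners of the Drosophila sex switch, were also flat in LOC113818112 (0.00) and transformer-2c (LOC113818113, 0.04). The homolog LOC113822175 stood at 131, 132 and 129 CPM in females and 95.5 and 121 CPM in males, without overlap. The homolog LOC113818093 was at 1.01 to 2.10 CPM and overlapped.

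Dosage compensation regulator (LOC113802200), an RNA helicase of the male X complex in Drosophila, had the smallest p of the list. It stood at 180, 141 and 138 CPM in females and 98.1 and 96.7 CPM in males. Its log2 fold change was -0.65 with SE 0.32 and an unadjusted p of 0.0665 by edgeR, -0.47 with the length offset and -0.66 without male 2. Both males lay below the lowest female, close to each other. Protein germ cell-less-like (LOC113817066) stood at 12.8, 7.66 and 9.63 CPM in females and 7.06 and 6.18 CPM in males. The male-specific lethal 3 homologs LOC113820204 and LOC113828505 overlapped, with log2 fold changes of 0.13 and 0.17, as did the putative gene LOC113828504, under 1.1 CPM in each library.

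Transcription factors and effectors of the pathway were mostly close to 0. Protein doublesex-like (LOC113800244), whose isoforms set sexual form in insects, had 0.143, 0.0557 and 0.222 CPM in females and 0 and 0.0792 CPM in males. The doublesex and mab-3 related gene LOC113822161 had at most 0.555 CPM. Of the 4 fruitless-like genes LOC113803434 was expressed, at 18.1, 12.6 and 16.1 CPM in females and 11.9 and 12 CPM in males, and the other 3, LOC113812670, LOC113822308 and LOC113823195, were at 1.88 CPM or less. Protein fem-1 homologs A, B and C (LOC113829264, LOC113804958 and LOC113816458) overlapped, with log2 fold changes of -0.10, -0.21 and -0.58. The SOX gene LOC113815885 stood at 11.6 to 36.7 CPM and overlapped, and SOX genes LOC113812893, LOC113802715, LOC113818092, LOC113829620 and LOC113825158 were under 1 CPM.

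Gonad genes were rare in both sexes. Vitellogenin receptor-like (LOC113811544) reached 1.58 CPM in female 2 and 0.317 CPM in male 3. The vitellogenin genes LOC113826705 and LOC113826723 had a count in female 2 alone, at 0.0557 CPM each. Piwi-like protein Ago3 (LOC113824132), of the germline small RNA pathway, stood at 3.15, 3.79 and 2.53 CPM in females and 2.08 and 4.49 CPM in males. A vasa-like helicase (LOC113822687) had 1.03 CPM in male 3 alone, PIWI-2 (LOC113829079) 0.0594 CPM in male 3 alone, and the testis-named genes LOC113814182 and LOC113817800 had counts in 1 female each. The remaining 3 members, an ovarian peritrophin, a putative vitellogenin-like gene and a truncated doublesex-related gene, had no count in the 5 libraries, which allows each up to 3 counts, 0.0557 to 0.0868 CPM, per library.

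Genes with counts in the controls of 1 sex alone were few, and most of them had counts in Vibrio libraries of the other sex. With at least 10 counts in every library of that sex and 0 in the other, 9 genes were counted in males alone and 14 in females alone. In the 3 Vibrio female libraries 4 to 5 of the 9 male genes were detected, and in the 3 Vibrio males 1 to 3. Of the 14 female genes 8 to 11 were detected in Vibrio females and 9 to 12 in Vibrio males. LOC113803389, counted in control females alone, had counts in Vibrio females 1 and 3 and 0 in all 3 Vibrio males. LOC113811075 stood at 0.784, 0.542 and 0.966 CPM in Vibrio females and 0.0756, 0.0390 and 0 CPM in Vibrio males. LOC113807729 stood at 0.1175, 0.333 and 0.328 CPM in Vibrio females and 0.0945, 0 and 0 CPM in Vibrio males. For LOC113807729 the gap was narrow, with 6 counts in Vibrio female 1 and 5 in Vibrio male 1. These 3 genes have no descriptive name and were picked with their values in view.

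The male gene with the highest mean was the uncharacterized LOC113808903, with similar levels in both males. Of the named ones, titin-like (LOC113812843), a giant muscle protein by name, had 0.376 CPM in male 2 and 8.59 CPM in male 3, and argonaute-3-like (LOC113817401) had 0.405 and 6.14 CPM. Chondroitin proteoglycan 2-like (LOC113815782) had 1.24 and 7.03 CPM, probable chitinase 10 (LOC113816518) 1.16 and 6.21 CPM, and peritrophin-1-like (LOC113811921), a chitin-binding protein, 1.71 and 3.03 CPM. With a floor of 3 counts per library for the control females, averaged over them, the control male means were at least 73.2-, 53.4-, 67.6-, 60.2- and 38.7-fold higher in that order. These means rested more on male 3 than on male 2. Titin-like and argonaute-3-like also had counts in Vibrio female 3, at 1.86 and 3.77 CPM. Chondroitin proteoglycan 2-like and probable chitinase 10 had 1.21 and 1.27 CPM in Vibrio female 1. In the Vibrio males these genes were at 0, but for 0.0378 CPM of chondroitin proteoglycan 2-like in male 1. The genes counted in control females alone were lower. In those females Replication factor C subunit 1 (LOC113810150) had 1.25, 0.946 and 0.377 CPM, and histone acetyltransferase KAT7-like (LOC113813256) 0.839, 0.520 and 0.866 CPM. Their female means were at least 11.7- and 10.1-fold higher than the male floor. The ATP-binding cassette gene LOC113812746, the transient receptor potential channel gene LOC113801933 and the sodium/potassium/calcium exchanger gene LOC113813795 had 0.278 to 0.635 CPM in females.

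A set of uncharacterized genes on 1 scaffold of the deposited table stood lower in both males. They were picked with their values in view: the scaffold is the one that holds LOC113808903, described below, and 3 of the 13 DESeq2 calls lie there. The scaffold holds 20 genes over 612 kb, of which 18 were tested, and 13 lay lower and 2 higher in males without overlap. Over all tested genes 11.8% lay lower and 9.54% higher. LOC113808899 stood at 61.7, 63.4 and 52.4 CPM in females and 33.8 and 29.9 CPM in males. LOC113808907 stood at 43.5, 45.2 and 36.7 CPM in females and 24.5 and 20.6 CPM in males, and LOC113808913 at 18.5, 20.1 and 16.7 CPM and 11.3 and 8.85 CPM. The spread within a sex was small beside the gap. Their log2 fold changes were -0.89, -0.89 and -0.87 with SE 0.18, 0.18 and 0.21, and the DESeq2 adjusted p values were 0.000247, 0.00338 and 0.0368. LOC113824323, on another scaffold and with the same deposited name as LOC113808899, had -0.88 and a DESeq2 adjusted p of 0.0368. Several of these genes share names, their values move together, and whether they share reads was not tested, so they may not be independent. In the 6 Vibrio libraries LOC113808899 stood at 37.4, 44.1 and 45.3 CPM in females and 34.5, 36.9 and 35.1 CPM in males. The females were again above the males, by less than in the controls, with a log2 fold change of -0.25.

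LOC113808903, on the same scaffold, was on or off by library. It had 0 counts in all 3 control females and 9.26 and 8.67 CPM in control males 2 and 3, a mean at least 146-fold above the floor of 3 counts per female library. It was also at 0 in Vibrio female 1 and in all 3 Vibrio males, and at 12 and 10.2 CPM in Vibrio females 2 and 3. The direction between the sexes was thus opposite with Vibrio, and its zeros did not follow sex. Its edgeR adjusted p was 0.756. LOC113808912, 6 genes along, was at 11.1 to 22.3 CPM in the controls and at 0 in 4 of the 6 Vibrio libraries.

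**Figure D5:**
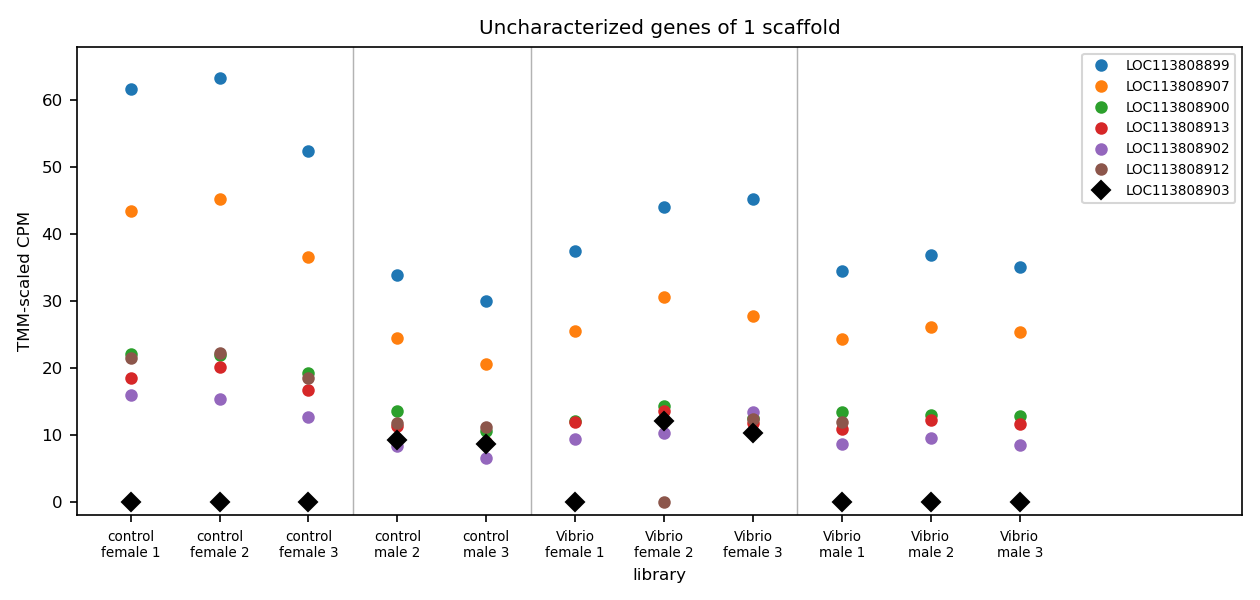
CPM in all 11 libraries for 7 uncharacterized genes of 1 scaffold. LOC113808899, at the top, lies at 52.4 to 63.4 CPM in control females and 29.9 to 45.3 CPM in all other libraries, and LOC113808903 (black diamonds) is at 0 in 7 libraries and at 8.67 to 12 CPM in the other 4.

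The other 6 DESeq2 calls were of genes at a low level in 1 sex. LOC113800432 had 6.79 CPM and scaffold attachment factor B1-like (LOC113802882) 1.58 CPM in male 3, and both were at 0 in the other 4 control libraries. A zinc finger protein gene (LOC113820390) had 4.11 and 4.29 CPM in females 1 and 2 and 0 in female 3 and both males, and LOC113807602 had 0.204 and 0.488 CPM in females 2 and 3 alone. Balbiani ring protein 3-like (LOC113816928) stood at 0.111 to 0.149 CPM in females and at 2.32 and 21.4 CPM in males. Chondroitin proteoglycan 2-like (LOC113815782), at 0 in all 3 females, is given above. The edgeR adjusted p of each was at least 0.756.

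Across all 11 libraries 35 tested genes separated the sexes without overlap, 17 higher (0.119%) and 18 lower (0.126%) in males. They were listed after the values were seen. Some genes would separate with no sex difference, and how many would do so here was not tested. No sex difference is therefore read from this list. Among those lower in males, alpha-mannosidase 2x-like (LOC113812487) had log2 fold changes of -1.36 in controls and -0.81 with Vibrio, fibril-forming collagen alpha chain-like (LOC113813068) -2.04 and -1.33, and histone acetyltransferase KAT6B-like (LOC113802377) -1.16 and -1.01. Among those higher, the uncharacterized gene LOC113816019 had 3.01 and 3.45 (2.15 in controls without male 2), H/ACA ribonucleoprotein complex subunit 1-like (LOC113819444) 3.75 and 2.94 (1.85 in controls without male 3), and Protein phosphatase methylesterase 1 (LOC113807309) 1.76 and 2.13. The putative antimicrobial peptide LOC113801814 had 0.30 and 1.78. With the sex difference averaged over control and Vibrio libraries edgeR called 0 genes, with a smallest adjusted p of 0.953 and 476 genes at an unadjusted p under 0.05. The test of whether the sex difference itself differed with Vibrio called 0 genes by edgeR, with 800 at an unadjusted p under 0.05 and a smallest adjusted p of 0.740.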

How the data were processed

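Hemocyte RNA was sequenced on Illumina from total RNA extracted with Trizol, per the labels' protocols. The authors deposited a raw count and an FPKM value per gene and library. Cutadapt 1.9 and FastQC are in the submitters' processing notes. The aligner, the counter, the genome build and any use of strand were not given in the sources used here. Hence genes that overlap on opposite strands or share a name may share reads. The ratio of deposited count to FPKM, which gives transcript length, varied between libraries by at most 0.58% over 7255 genes. In the control libraries 63.6 to 65.6% of counts from 1 to 20 were even, so counts may not each be an independent fragment. Intervals and floors cover counting error only. Pairs of control libraries had chi-square values of 166 to 351 for each degree of freedom, and none was a duplicate.

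Counts of 14295 genes that passed filterByExpr (4508 left out) were scaled by TMM and fitted with edgeR 4.0.16 (R 4.3.3) by robust quasi-likelihood over all 11 libraries with 4 group means. The contrast was control males less control females, two-sided, Benjamini-Hochberg adjusted over genes, called under 0.05. Single values were tested by exact permutation over the 5 libraries. DESeq2 1.42.0 was an alternative. Log2 levels used CPM + 0.5. Identifiers matched the RefSeq table in 12909 cases; names came from the deposited table. Tested on simulated data, the fit made 8 false calls in 14295 genes.

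The 33 lists were made from gene names by patterns. Named genes followed a rule: 12 in each direction by smallest p among genes with a descriptive name, at least 5 FPKM in the higher sex and no overlap; in each list the most abundant member and up to 2 without overlap; genes at 0 in 1 sex with at least 10 counts in each library of the other, 5 each way; and sex determination genes with a count. Members and lists were chosen with earlier results of these data known. No sequence tables were at hand, so no sequence is printed.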

Additional observations from a re-analysis of the deposited data

How the results depend on the processing

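With edgeR 0 genes were called under RLE, upper-quartile or no scaling, without the filter, with at least 5 CPM, in the 5 control libraries alone, with hepatopancreas markers as a covariate, with the length offset, and without control female 1 and control male 2. DESeq2 called 13. Without the 3 libraries highest in hepatopancreas markers (control male 3, Vibrio females 1 and 3) 1 gene was called, LOC113819004. Leaving out a library gave 0 to 1 genes: LOC113820390 without control female 3, LOC113819004 without control male 3 and LOC113808903 without Vibrio female 1; each was at 0 in some libraries. With a replicate block 0 genes were called and the smallest adjusted p was 0.868. Libraries with the same replicate number correlated from -0.48 to 0.55 over all pairs of groups, and at -0.04 and 0.07 between the control sexes, so the number was not taken as a pairing.

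The number of genes at an unadjusted p under 0.05 was 698 and ran from 225 without control female 1 to 1930 without those 3 libraries. It was 314 without control female 1 and control male 2. A fit without a control male leaves 1, assumed to vary like the other groups.

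Of 33 list medians 17 kept their sign in 23 alternatives, among them the proteasome, respiratory chain, antioxidant enzymes, DNA replication, integrins and matrix, nuclear receptors and coagulation. The alternatives include leaving out each Vibrio library, which can hardly move a contrast of control means. The proteasome median stayed at 0.67 to 0.68 in those fits, so they say little about how stable a sign is. The median of protease inhibitors turned without control male 3, with the hepatopancreas covariate and without the 3 libraries. Cytoplasmic ribosomal proteins, mitochondrial ribosomal proteins, prophenoloxidase and nervous system markers changed sign without control female 1 and control male 2. Library totals alone moved the median of all genes to -0.10. Depth limits genes under about 1 CPM, where 3 counts equal 0.0557 to 0.0868 CPM.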
